A study of Homo sapiens with 9 samples.

Results

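In DND-41 cells, a human T-cell acute lymphoblastic leukemia line, 1439 of the 7445 CUT&RUN peaks of BRG1 overlapped no peak of RUNX1 (19.3%, 95% interval 18.4 to 20.2). These BRG1 peaks without RUNX1 were taken from the deposited lists by a rule of no shared base in hg19, so their distance from RUNX1 is fixed by the choice, and only its size is a measurement. The remaining 6006 BRG1 peaks, which share at least 1 bp with RUNX1, serve as the comparison, beside 13973 RUNX1 peaks that share no base with BRG1. BRG1, RUNX1 and H3K4me3 were profiled in cells without a treatment label, while H3K27ac was profiled after 100 nM ACBI-1 and after DMSO. ACBI-1 is a small molecule that brings about degradation of SWI/SNF ATPases, and DMSO is the solvent control. BRG1 binding after ACBI-1 was not analysed here, so the sites are those of cells without a treatment label.

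BRG1 (SMARCA4) is an ATPase of the SWI/SNF complexes, which slide and evict nucleosomes and so keep promoters and enhancers accessible. The complexes have little sequence preference of their own, and transcription factors are known to bring them to their sites. RUNX1 is a DNA-binding factor of the blood lineages with a long-known role in T-cell development and T-cell leukemia. H3K4me3 marks mainly active promoters, and H3K27ac marks active promoters and enhancers. A BRG1 peak off H3K4me3 but in H3K27ac therefore has the usual marks of an enhancer.

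Each target and condition had 1 library, so no p-value is given and no difference has a replicate check. The lists held 19893 RUNX1, 12834 H3K4me3, 52967 ACBI H3K27ac and 90495 DMSO H3K27ac peaks, as positions without heights, and read depth is unknown. Intervals on shares are exact Clopper-Pearson 95% intervals, and intervals on differences of shares are Newcombe 95% intervals. Both cover counting error over peaks of these libraries only, and neighbouring peaks are not independent. A peak missing from a list was not called there, which does not show that the protein or mark was absent.

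BRG1 peaks without RUNX1 were narrow. Their median width was 234 bp (quartiles 177 and 321 bp), against 297 bp (211 and 398 bp) for BRG1 peaks with RUNX1, and the widest measured 1065 bp, against 1606 bp. The share of BRG1 peaks that lacked RUNX1 was 29.6% (27.2 to 32.0) among the narrowest of 5 width bins (150 to 186 bp) and 10.3% (8.79 to 11.9) among the widest (414 bp or more). A narrow peak overlaps any list less easily, so width belongs to the rule and is given as a description. At the border of the rule, the nearest peaks without RUNX1 lay 1 bp from a RUNX1 peak on chromosome 11 (122592642 to 122592882), 1 bp from one on chromosome 3 (141160294 to 141160457) and 4 bp from one on chromosome 19 (34625243 to 34625475). The peaks just across it shared 1 bp with RUNX1 on chromosome 1 (167242841 to 167243011), 1 bp on chromosome 6 (34204537 to 34204886) and 2 bp on chromosome 3 (143014131 to 143014289). Both sides of the border held acetylated sites: the chromosome 11 site lay in a DMSO H3K27ac peak of 22115 bp, and the chromosome 6 site in one of 5056 bp.

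On H3K4me3, BRG1 peaks with and without RUNX1 differed by a few percentage points in acetylation, and off H3K4me3 by more than 10. Of the BRG1 peaks without RUNX1, 59.3% (854 peaks) overlapped H3K4me3. The difference from BRG1 peaks with RUNX1 was -3.04 percentage points (-5.87 to -0.245), and -1.33 points once both sets were weighted to the same BRG1 widths. Within H3K4me3, 71.1% (67.9 to 74.1) of the peaks without RUNX1 and 71.4% (69.9 to 72.8) of those with it were in ACBI H3K27ac, a difference of -0.313 points (-3.75 to 2.97). In DMSO H3K27ac the shares on H3K4me3 were 93.6% (91.7 to 95.1) and 95.9% (95.2 to 96.5). Peaks of RUNX1 alone on H3K4me3 were in ACBI H3K27ac more often, at 82.4% (81.3 to 83.5).

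Off H3K4me3, fewer BRG1 sites without RUNX1 were acetylated. Of these 585 peaks, 57.3% (53.1 to 61.3) were in ACBI H3K27ac, against 72.6% (70.7 to 74.4) of the 2259 BRG1 peaks with RUNX1. In DMSO H3K27ac the shares were 75.2% (71.5 to 78.7) without RUNX1 and 89.1% (87.7 to 90.3) with it. The differences came to -15.3 points (-19.7 to -10.9) in ACBI and -13.9 points (-17.7 to -10.3) in DMSO. Weighting to the same BRG1 widths left them at -13.6 and -13.9 points. RUNX1 peaks without BRG1 lay lower still off H3K4me3, at 48.2% (47.2 to 49.2) in ACBI and 71.0% (70.0 to 71.9) in DMSO. The BRG1 peaks with RUNX1 thus had the highest acetylated share of the 3 sets away from promoters, in both lists. The RUNX1 list is a separate one, with a median peak width of 402 bp against 284 bp in the BRG1 list. Its peaks were not weighted for width, so their place in this order, and their share on H3K4me3 above, compare unlike peaks.

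**Figure D1:**
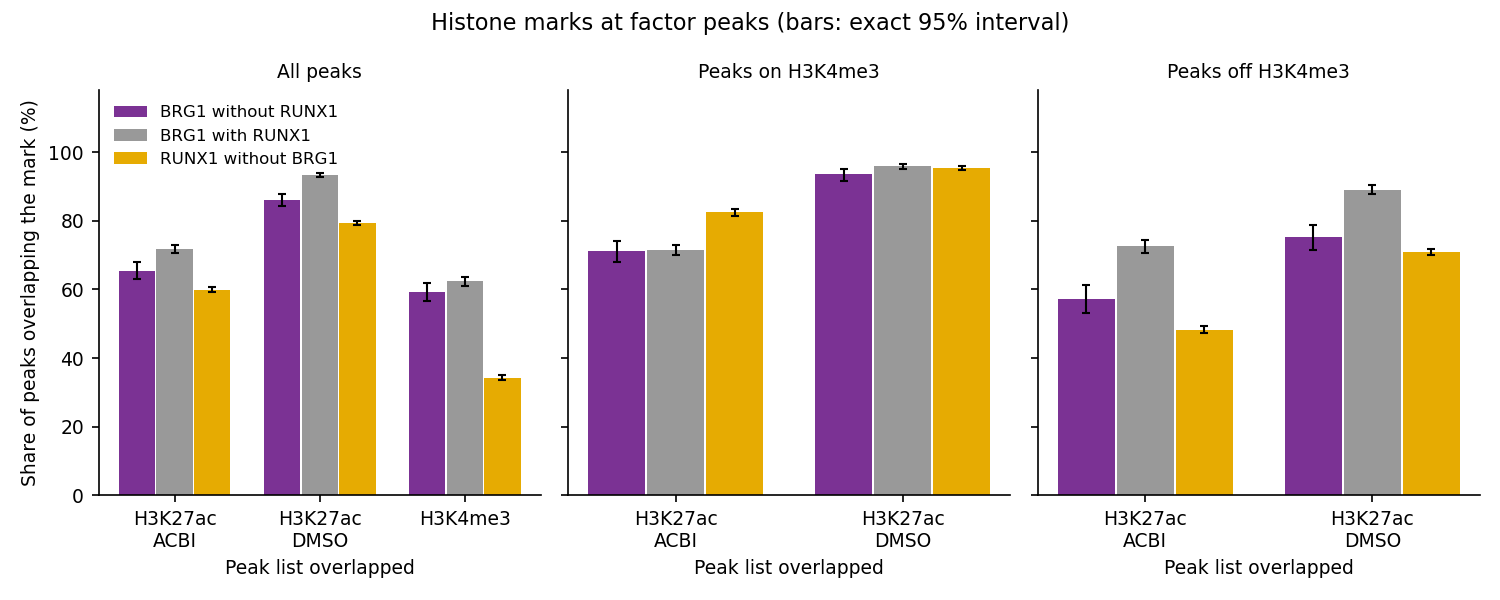
Share of peaks (vertical axis, percent) that overlapped each mark list (horizontal axis) for BRG1 peaks without RUNX1, BRG1 peaks with RUNX1 and RUNX1 peaks without BRG1, over all peaks and split by H3K4me3; bars are shares over peaks of 1 library and error bars exact 95% intervals. Off H3K4me3 the BRG1 peaks without RUNX1 stand at 57.3% in ACBI and 75.2% in DMSO, below those with RUNX1 at 72.6% and 89.1%, while on H3K4me3 the 2 BRG1 sets differ by -0.313 points in ACBI and -2.33 points in DMSO.

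The acetylated stretches around these sites were shorter than around BRG1 peaks with RUNX1, both off and on H3K4me3. Off H3K4me3, the DMSO H3K27ac peak under a BRG1 peak had a median width of 2074 bp (quartiles 1148 and 4027 bp) without RUNX1 and 3650.5 bp (1900 and 6883 bp) with it. On H3K4me3 the medians were 1875 bp (interval 1786 to 1961) without RUNX1 and 2132 bp (2076 to 2183) with it. At 1000 bp from the midpoint of peaks off H3K4me3, ACBI H3K27ac covered 22.5% of sites without RUNX1 and 41.7% of sites with it. DMSO H3K27ac covered 39.1% and 63.3% there. At 5000 bp the DMSO values were 12.6% and 25.9%. On H3K4me3 the 2 sets ran closer, with DMSO cover at 1000 bp of 41.9% without RUNX1 and 48.6% with it.

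**Figure D2:**
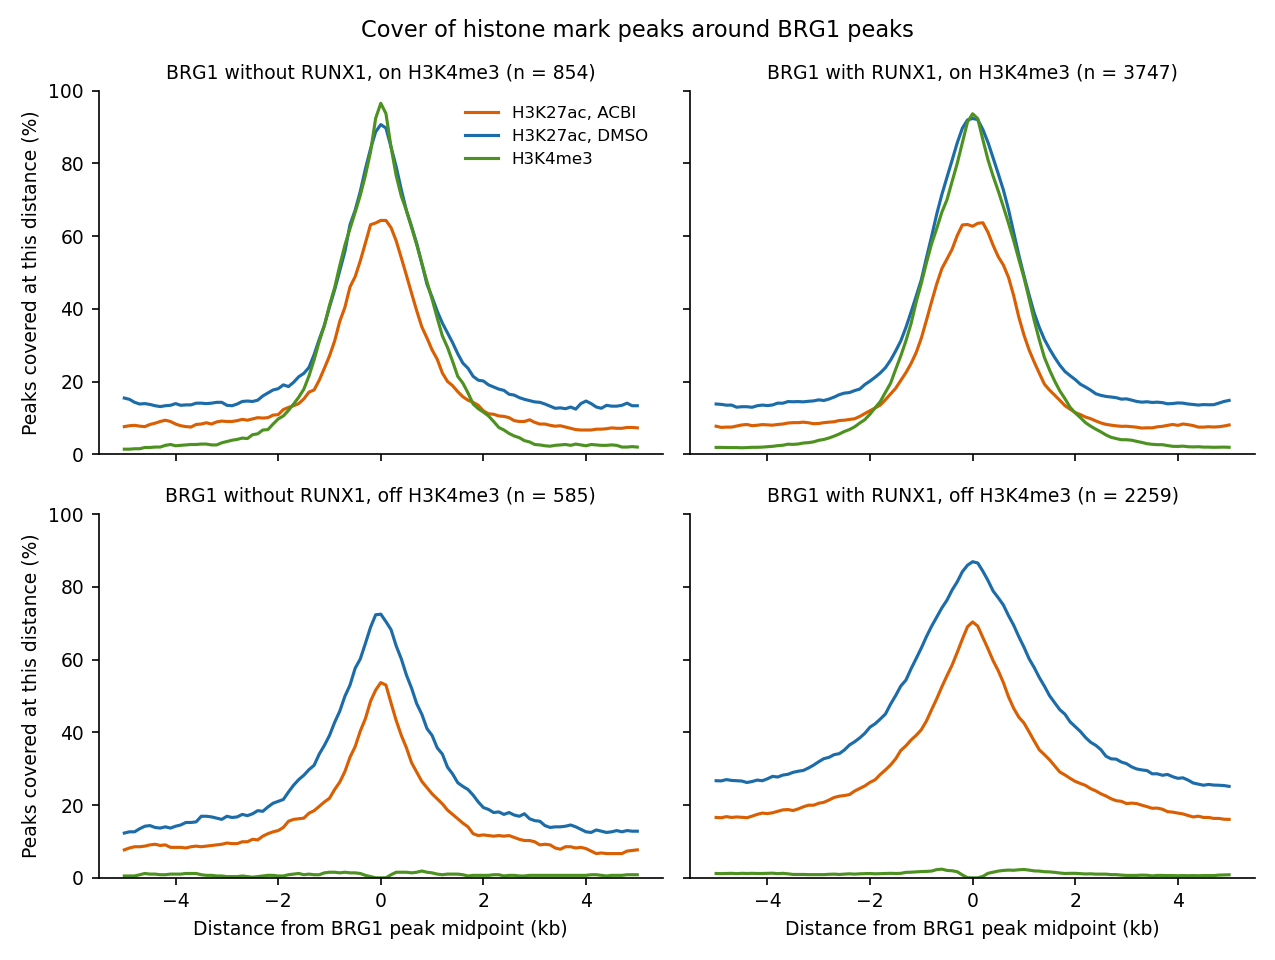
Share of BRG1 peaks (vertical axis, percent) covered by ACBI H3K27ac, DMSO H3K27ac or H3K4me3 peaks at each distance from the BRG1 peak midpoint (horizontal axis, kb), without RUNX1 on the left and with it on the right, on H3K4me3 above and off it below; lines are shares over all peaks of the panel, with no error shown. In the lower panels the DMSO line at the midpoint reaches 72.5% without RUNX1 and 86.9% with it, and at 5000 bp 12.6% and 25.9%.

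BRG1 peaks without RUNX1 lay less often in the middle of their acetylated stretch than those with RUNX1. Of the 1239 in DMSO H3K27ac, 1096 (88.5%, 86.5 to 90.2) lay wholly inside the acetylated peak, against 90.9% (90.2 to 91.7) of those with RUNX1. The midpoint fell in the central 50% of that peak in 60.0% of cases (57.3 to 62.8), against 66.3% (65.0 to 67.5) with RUNX1. On H3K4me3, 83.1% (80.5 to 85.6) lay wholly inside the H3K4me3 peak without RUNX1 and 79.96% (78.6 to 81.2) with it. Peaks off H3K4me3 were far from it: the median distance to the nearest H3K4me3 peak was 75680 bp without RUNX1 and 72577 bp with it, and 26 of the 585 (4.44%) had one within 1 kb.

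Most BRG1 peaks without RUNX1 lay more than 1 kb from any RUNX1 peak. Distances from random positions to RUNX1 are not given here. Whether these sites lie nearer to RUNX1 than random positions was therefore not tested. The median distance to the nearest RUNX1 peak was 29010 bp (quartiles 6728 and 85234.5 bp), with an interval of the median of 25760 to 32609 bp. Only 33 peaks (2.29%) had RUNX1 within 100 bp and 202 (14.0%) within 1 kb, while 313 (21.8%) lay 100 kb or more away. By distance class, 142 peaks lay under 500 bp and 477 at 10 to 50 kb. The classes differ in width, so their counts do not show separate groups. The near peaks were mostly promoter sites: 73.9% (65.9 to 80.9) of those under 500 bp were on H3K4me3, against 46.7% (37.6 to 56.0) at 1 to 5 kb and 54.6% (48.9 to 60.2) at 100 kb or more.

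Acetylation was less frequent farther from RUNX1. In ACBI H3K27ac the share was 76.8% (68.9 to 83.4) under 500 bp, 66.5% (62.0 to 70.7) at 10 to 50 kb and 55.9% (50.2 to 61.5) at 100 kb or more. In DMSO H3K27ac the same classes had 93.0% (87.4 to 96.6), 85.3% (81.8 to 88.4) and 79.6% (74.7 to 83.9). The DMSO H3K27ac peak under the site had a median width of 2520 bp in the nearest class, 1814 bp at 10 to 50 kb and 1500 bp in the farthest. The part of peak width and of H3K4me3 in this order was not tested.

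**Figure D3:**
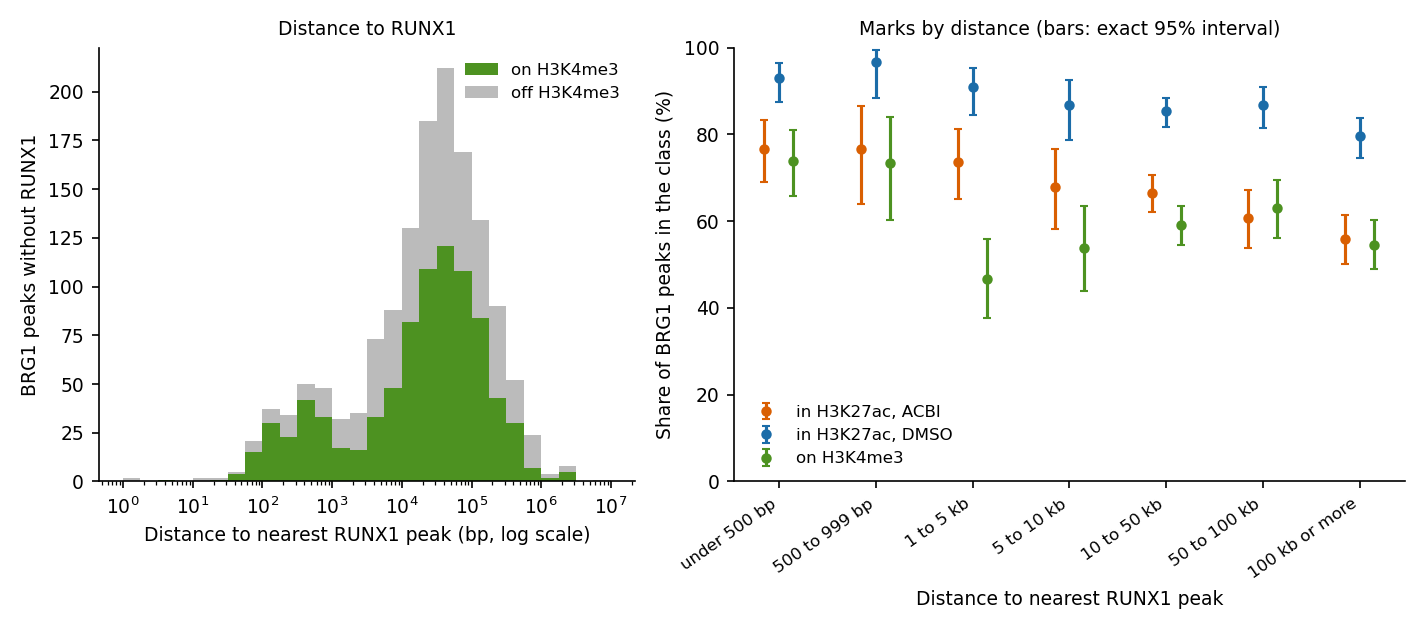
Left, number of BRG1 peaks without RUNX1 (vertical axis) by distance to the nearest RUNX1 peak (horizontal axis, bp, log scale), stacked by H3K4me3. Right, share of them in each mark list (vertical axis, percent) by distance class, with exact 95% intervals as bars; the ACBI share is 76.8% under 500 bp and 55.9% at 100 kb or more, and the DMSO share 93.0% and 79.6%.

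Most acetylated BRG1 peaks without RUNX1 lay in a stretch that held no RUNX1 peak. The 1239 acetylated peaks lay in 1187 DMSO H3K27ac peaks. For 255 of the 1239 (20.6%, 18.4 to 22.9) the same DMSO peak held RUNX1 elsewhere, and for 143 (11.5%) it held a BRG1 peak with RUNX1. The share of all DMSO H3K27ac peaks that hold RUNX1 is not given here, so these values do not set the sites apart. Where RUNX1 was elsewhere in the stretch, the stretch had a median width of 3487 bp, against 1681.5 bp where it held none. H3K4me3 was as frequent in both cases, at 65.1% (58.9 to 70.9) and 64.3% (61.2 to 67.3).

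The next comparison asked which of these sites still lay in called H3K27ac after the SWI/SNF degrader. Of the 1239 BRG1 peaks without RUNX1 in DMSO H3K27ac, 307 (24.8%, 22.4 to 27.3) had no overlapping ACBI peak, and 932 kept one. The background was 23.7% over all 6844 acetylated BRG1 peaks, so the sites stand near other BRG1 sites. Over all DMSO H3K27ac peaks it was 59.1%, but there whole peaks were counted, with no ACBI peak anywhere along them. Those peaks were also narrower, with a median of 741 bp against 1906 bp under these sites, so 59.1% is an unlike measure. BRG1 peaks with RUNX1 had 23.4% (22.3 to 24.6) without an ACBI peak, and the difference was 1.33 points (-1.25 to 4.04). It turned to -3.03 points when both sets were weighted to the same widths of the DMSO H3K27ac peak.

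Sites without RUNX1 lacked an ACBI peak in similar shares on and off H3K4me3 under the 1 bp rule, and less often on it when a mark within 1 kb counted. On H3K4me3, 195 of 799 (24.4%, 21.5 to 27.5) had no ACBI peak, and off H3K4me3 112 of 440 (25.5%, 21.4 to 29.8). Counting a mark within 1 kb, the shares were 15.6% on H3K4me3 and 23.9% off it. The backgrounds over all acetylated BRG1 peaks were 25.6% on H3K4me3 and 20.3% off it. Over all DMSO H3K27ac peaks, again counted as whole peaks, the backgrounds were 14.5% on H3K4me3 and 65.0% off it. These are not on the same measure as the shares of BRG1 sites. Off H3K4me3, BRG1 peaks with RUNX1 had 19.2% (17.5 to 21.0), so the sites without RUNX1 stood 6.27 points higher (2.03 to 10.9). Weighted to the same DMSO H3K27ac widths, the shares were 19.4% without RUNX1 and 21.2% with it, and the difference turned to -1.71 points. It also turned along the widths. In the narrowest of 5 width bins (158 to 1297 bp), 54.0% of distal sites without RUNX1 and 70.0% of those with it had no ACBI peak. In the widest bin (4776 bp or more), 5.49% and 1.87% had none, from 5 of 91 and 14 of 748 peaks.

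**Figure D4:**
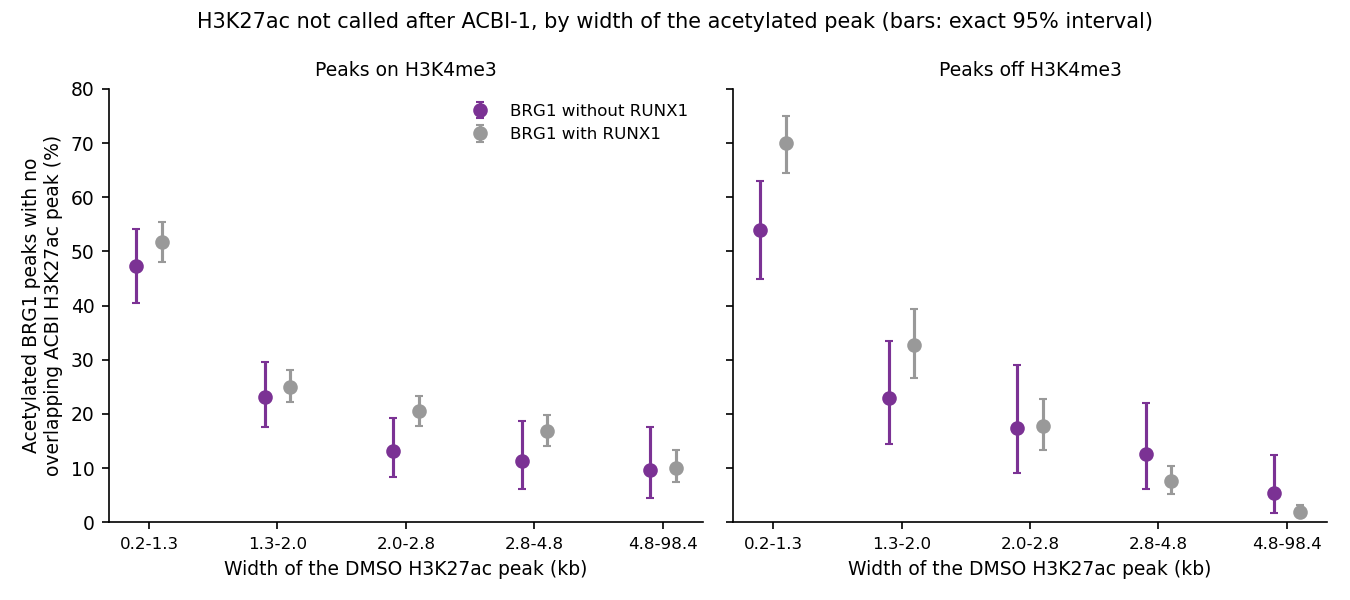
Share of acetylated BRG1 peaks with no overlapping ACBI H3K27ac peak (vertical axis, percent) by width of the DMSO H3K27ac peak in 5 bins (horizontal axis, kb), for peaks without and with RUNX1, on H3K4me3 at left and off it at right; error bars are exact 95% intervals. Off H3K4me3 the peaks without RUNX1 stand lower in the narrowest bin (54.0% and 70.0%) and higher in the widest (5.49% and 1.87%).

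Among the distance classes, distal sites farthest from RUNX1 had the highest share missing from the ACBI list. Off H3K4me3, 44 of 97 acetylated sites at 100 kb or more from RUNX1 (45.4%, 35.2 to 55.8) had no ACBI peak, against 68 of 343 (19.8%, 15.7 to 24.4) at shorter distances. The split at 100 kb was chosen after the values by distance were seen. The far sites had narrower DMSO peaks, with a median of 1407 bp against 2472 bp. Among sites in DMSO peaks of 1 kb or wider, the shares were 34.3% (23.3 to 46.6) far from RUNX1 and 13.3% (9.51 to 17.8) nearer to it. On H3K4me3 the shares were 23.7% (17.2 to 31.3) at 100 kb or more and 24.6% (21.3 to 28.1) at shorter distances. Sites whose acetylated stretch held RUNX1 elsewhere had no ACBI peak in 15.7% of cases (11.4 to 20.7), against 27.1% (24.4 to 30.03) of sites whose stretch held none. The stretches with RUNX1 elsewhere were also the wider, and these shares were not weighted for width. The part of width in this difference was not tested.

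Where both lists called H3K27ac, the ACBI peak was usually the narrower. At the 932 BRG1 peaks without RUNX1 in both lists, the median H3K27ac width was 1562 bp in ACBI and 2257 bp in DMSO. The ACBI peak was the narrower at 80.4% of them (77.7 to 82.9), against 82.6% (81.4 to 83.7) with RUNX1. The median ratio of ACBI to DMSO width was 0.713 (interval 0.689 to 0.746) without RUNX1 and 0.716 (0.703 to 0.729) with it. It was 0.755 on H3K4me3 and 0.638 off it for the sites without RUNX1, and 0.7585 and 0.639 for those with RUNX1. Depth and background of the ACBI and DMSO libraries are unknown and cannot be told apart from the treatment.

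The widest sites that left the ACBI list were mostly small islands of acetylation. On H3K4me3, the widest such site was found on chromosome 17 (42276902 to 42277784). The nearest ACBI peak was 107 bp away, and 17 of its 883 bp were in DMSO H3K27ac. The next, on chromosome 2 (10091165 to 10092026), lay 18099 bp from the nearest ACBI peak and was covered over 615 of 862 bp in DMSO. On chromosome 17 (44344009 to 44344652), the nearest ACBI peak lay 40979 bp away, and a DMSO peak of 775 bp covered 576 bp. On chromosome 1 (42846160 to 42846770) and chromosome 17 (65989340 to 65989939), the nearest ACBI peaks were 44557 and 12626 bp away, and DMSO H3K27ac covered the whole BRG1 peak. So 4 of these 5 promoter-marked sites were well clear of any ACBI peak, while the first was a near miss.

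Off H3K4me3, the widest site missing from ACBI lay on chromosome 5 (130172335 to 130172889), 327983 bp from RUNX1. The nearest ACBI peak was 326194 bp away, and the site overlapped a DMSO peak of 392 bp. A site on chromosome 1 (71954212 to 71954662) lay 216542 bp from the nearest ACBI peak, in a DMSO peak of 1019 bp. Another on chromosome 1 (85516369 to 85516779) lay 104572 bp from ACBI H3K27ac and overlapped a DMSO peak of 727 bp. These 3 thus had no called ACBI H3K27ac peak within 100 kb, which does not show that acetylation was absent there. The other two had ACBI H3K27ac closer by: 3341 bp on chromosome 10 (30814546 to 30814974) and 911 bp on chromosome 21 (14903147 to 14903557).

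Few sites went the other way. Of the 200 BRG1 peaks without RUNX1 outside DMSO H3K27ac, 10 (5.0%, 2.42 to 9.003) were in ACBI H3K27ac, beside a background of 5.49% over all such BRG1 peaks. The widest, on chromosome 2 (44843782 to 44844202), lay wholly in an ACBI peak of 1231 bp, and the nearest DMSO peak was 57298 bp away. The second, on chromosome 4 (97275282 to 97275573), lay in an ACBI peak of 819 bp, 1360 bp from DMSO H3K27ac. On chromosome 1 (65432458 to 65432707), the next of the 10 missed a DMSO peak by 5 bp.

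A group of BRG1 sites overlapped none of the mark lists. The IgG libraries were not used, so whether these sites also had IgG signal was not tested. Of the peaks without RUNX1, 138 (9.59%, 8.12 to 11.2) overlapped neither H3K4me3 nor H3K27ac in either list, against 234 (3.90%, 3.42 to 4.42) of those with RUNX1. The difference was 5.69 points (4.19 to 7.39). It was widest among broad BRG1 peaks. At widths of 414 bp or more, 17 of 154 (11.0%, 6.56 to 17.1) peaks without RUNX1 and 10 of 1343 (0.745%, 0.358 to 1.37) with it were unmarked. At 150 to 186 bp the shares were 10% (7.33 to 13.2) and 7.23% (5.72 to 8.99). So unmarked sites grew rarer with width where RUNX1 was present, while without it they made up 6.58% to 11.0% of every width bin. The unmarked sites lay a median of 35917.5 bp from ACBI H3K27ac, 21101 bp from DMSO H3K27ac and 38178.5 bp from RUNX1.

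The unmarked group included some of the widest BRG1 peaks without RUNX1. Of the 8 widest, 4 had no mark, among them the first on chromosome 19 (44980660 to 44981724; 1065 bp) and the second on chromosome 12 (133634659 to 133635683; 1025 bp). The nearest H3K4me3 peaks were 21867 and 19479 bp away, and RUNX1 was 22655 and 21118 bp away. The others without a mark were on chromosome 16 (68597702 to 68598589; 888 bp), 23661 bp from DMSO H3K27ac, and on chromosome 7 (56534294 to 56535146; 853 bp), 92782 bp from it. The next widest unmarked site, on chromosome 1 (40928478 to 40929265; 788 bp), was 11736 bp from DMSO H3K27ac. These broad sites therefore lay more than 10 kb from any called peak of the marks.

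The 4 marked sites among the 8 widest all overlapped H3K4me3. The site on chromosome 12 (133136462 to 133137390; 929 bp) lay wholly in an H3K4me3 peak of 2122 bp, with H3K27ac over 183 bp in ACBI and 633 bp in DMSO. The site on chromosome 1 (168317197 to 168318043; 847 bp) had H3K27ac over 812 bp in ACBI and all 847 bp in DMSO. The H3K4me3 peak at this chromosome 1 site measured only 168 bp, the narrowest width in that list. The remaining marked sites were those on chromosomes 17 and 2 that lacked H3K27ac in ACBI.

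The share of unmarked sites varied between chromosomes, with wide intervals. It was 19.05% on chromosome 19 (12 of 63, 10.2 to 30.9), 17.1% on chromosome 9 (7 of 41, 7.15 to 32.1), 16.4% on chromosome 1 (22 of 134, 10.6 to 23.8) and 15.8% on chromosome 13 (6 of 38, 6.02 to 31.3). These are the 4 highest shares, and their intervals overlap. The share over all chromosomes was 9.59%, which the intervals of chromosomes 9 and 13 include and those of chromosomes 19 and 1 do not. Leaving out the Y, the lowest shares were 0 of 42 on chromosome 15 (0 to 8.41%) and 0 of 23 on chromosome 21 (0 to 14.8%). The interval of chromosome 15 does not reach 9.59% either. The chromosomes named are the extremes of all those counted, and the intervals are not corrected for that choice. The 12 unmarked sites on chromosome 19, looked at after the widest site was found there, had a median width of 323 bp and lay a median of 22156 bp from DMSO H3K27ac. No site was assigned to a gene, since no hg19 annotation was used.

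Most of the sites farthest from RUNX1 were acetylated, as were most BRG1 peaks without RUNX1. Of the 8 farthest on the autosomes and X, 6 were in ACBI H3K27ac, 6 in DMSO H3K27ac and 4 on H3K4me3. Over all 1439 the shares were 65.5% in ACBI, 86.1% in DMSO and 59.3% on H3K4me3, and 8 sites are too few to set against them. These distances count every base of the build, and assembly gaps or regions where peaks cannot be called were not taken out. The farthest, on chromosome 21 (9512997 to 9513179), lay 5780453 bp from the nearest RUNX1 peak, in H3K27ac peaks of 552 bp in ACBI and 1407 bp in DMSO. The second, on chromosome 11 (39392753 to 39392902), lay 2671477 bp from RUNX1 in H3K27ac peaks of 618 bp in ACBI and 959 bp in DMSO. A promoter-marked site on chromosome 8 (33330486 to 33330785), 2438987 bp from RUNX1, had H3K27ac peaks of 2208 bp in ACBI and 2323 bp in DMSO and an H3K4me3 peak of 1785 bp. At another on chromosome 6 (163834765 to 163835200), 1822400 bp from RUNX1, the H3K27ac peak was wider in ACBI, at 3316 bp, than in DMSO, at 2478 bp.

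Of the rest of the 8, the sites on chromosomes 18 and 14 differed between the H3K27ac lists. The site on chromosome 18 (65085353 to 65085525) was 1259866 bp from any ACBI peak and in a DMSO peak of 351 bp, while one on chromosome 14 (42218643 to 42218794) was in an ACBI peak of 204 bp and 2107630 bp from any DMSO peak. On chromosome 1, neighbouring BRG1 peaks (104067820 to 104068111 and 104068346 to 104068510) both overlapped H3K4me3. Only the second lay in H3K27ac, of 788 bp in ACBI and 822 bp in DMSO. The first was a near miss, 314 bp from ACBI H3K27ac and 234 bp from DMSO H3K27ac, and its H3K4me3 peak measured 192 bp.

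BRG1 peaks without RUNX1 were scattered along the genome. Their share among the BRG1 peaks of a chromosome ran from 13.2% (9.51 to 17.7) on chromosome 14 to 24.4% (20.4 to 28.9) on chromosome 5, leaving out the Y with 5 BRG1 peaks. Another BRG1 peak lay within 1 kb of 185 of them (12.9%, 11.2 to 14.7), against 11.2% (10.5 to 12.1) of those with RUNX1. No other BRG1 peak lay within 100 kb of 35.4% (32.9 to 37.9), against 31.0% (29.9 to 32.2). Joined over gaps of up to 10 kb, they formed 1363 groups, of which 1292 held a lone peak, 68 held 2, 2 held 3 and 1 held 5. The group of 5 spanned 4102 bp on chromosome 2 (232571129 to 232575230), with BRG1 peaks of 166, 437, 504, 151 and 393 bp. All 5 were on H3K4me3 and in H3K27ac in both ACBI and DMSO. The nearest RUNX1 peak was 38191 bp away. Groups of BRG1 peaks with RUNX1 were not formed.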

How the data were processed

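Per the labels' protocols, chromatin of DND-41 cells was cut with protein A/G-micrococcal nuclease. Of 9 samples, 5 have a peak list. The 4 others were not used here. They are labelled IgG, except for an input labelled for RUNX1, so the control named for RUNX1 differs in kind from the rest. The authors deposited each list as 4 columns (chromosome, start, end and name), so the values are positions in bp with no score, signal or other unit. Per the submitters' processing notes, the build was hg19, with MACS2 and SEACR among the tools. RUNX1 peaks come from MACS2 and H3K27ac peaks are broad peaks at q below 0.01, per the file headers. Spike-in signal tracks are also named in the H3K27ac headers and were not used here. The aligner, other thresholds, pooling and use of controls: not given in the sources used here. Peak lists called with different settings differ in how readily a peak is called, which moves every overlap.

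Overlaps (at least 1 bp) and distances between edges were computed in Python 3.11.15 (scipy 1.17.1, pandas 2.3.3, numpy 2.4.6), with plots from matplotlib 3.10.9. The functions were tested on simulated intervals against bedtools 2.31.1, which also counted 1439 members. Weighting used 5 width bins. Named sites are the 8 widest members, the 8 farthest from RUNX1, the 3 on each side of the border, the 5 widest unmarked, the 5 widest without an ACBI peak on and off H3K4me3, and the 3 widest in ACBI but not DMSO. Members, lists and rules were chosen with earlier results of these data known. The planned gene lists, cell type markers and motifs need an hg19 genome or annotation and were not used here, so the T-cell label of the line was not checked on marker genes.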

Additional observations from a re-analysis of the deposited data

How the results depend on the processing

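Of 84 values recomputed under another setting, 66 changed by less than counting error (peak counts: less than 1.5 times), 17 changed by more and 1 reversed. The reversed value is the distal difference in sites without an ACBI peak (6.27 points), which was -1.71 when weighted to the same DMSO H3K27ac widths; the difference over all sites (1.33 points) was then -3.03. With 50% of the BRG1 peak covered, the shares of BRG1 peaks without RUNX1 were 59.9% (ACBI), 83.2% (DMSO) and, without an ACBI peak, 29.2% over all and 29.5% on H3K4me3. Accepting a mark within 1 kb gave 73.5%, 89.7%, 18.4% and 15.6% for the same 4, and 23.9% off H3K4me3 without an ACBI peak. With BRG1 peaks at or above the median width only, 62.2% were on H3K4me3 and 71.1% in ACBI, and 19.2% (all), 20.2% (on H3K4me3) and 17.2% (off it) had no ACBI peak. With DMSO H3K27ac peaks of 1 kb or wider, these last 3 were 18.2%, 18.6% and 17.5%. A wide peak overlaps more easily by construction. The differences off H3K4me3 in acetylated share, and that in unmarked sites, kept their direction under the alternatives run; the difference in ACBI on H3K4me3 (-0.313 points) lay between -3.59 and 1.21. Leaving out peaks with RUNX1 within 1 kb gave 1237 peaks, and requiring 50% RUNX1 cover to remove a peak gave 1778. Chosen after seeing the data were the weighting by DMSO width, all alternatives for differences on or off H3K4me3 and for unmarked sites, and the 1 kb RUNX1 margin for differences. No paired analysis was possible because each condition has 1 library here.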
